A study of Mus musculus with 6 samples.

Results

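The oxidative phosphorylation subunits are the proteins that make up the respiratory chain (complexes I to IV) and the ATP synthase (complex V) of the mitochondrial inner membrane. Their genes were taken by name: protein-coding symbols that start with Ndufa, Ndufb, Ndufc, Ndufs or Ndufv (names with Ndufaf left out), the genes Sdha to Sdhd, symbols that start with Uqcr, Cox4i, Cox5, Cox6, Cox7, Cox8 or Atp5, and the protein genes of the mitochondrial genome. The rule itself used no measured value, but the members were chosen with earlier results of these data known. It found 99 genes, 86 nuclear and 13 mitochondrial, of which 95 were among the 27263 genes listed in the files. Listed were 83 nuclear genes (38 of complex I, 4 of complex II, 8 of complex III, 16 of complex IV and 17 of complex V) and 12 mitochondrial genes. The 4 genes not listed were Cox7b2, Cox8b, mt-Atp8 and a second annotation entry for Atp5o.

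Transcript levels came from RNA sequencing of 6 libraries of primary mouse bone marrow stromal cells, 3 from GCA-treated and 3 from PBS-treated cultures. GCA cells were C57BL/6 marrow cells from tibia and femur, sorted as Sca-1+ CD29+ CD45- CD11b-, grown with 10% fetal bovine serum and given rGCA at 50 nM for 3 days. PBS cells had the same strain, sort, medium and time, with the buffer PBS in place of rGCA. The labels leave GCA unexplained; knowledge of the study points to grancalcin, which binds calcium and is made by myeloid cells, with rGCA as the recombinant protein. The labels give no age or sex of the mice and do not say whether replicates came from separate mice, pooled mice or separate cultures. All p-values here thus reflect the scatter among these libraries alone, and that scatter may be technical.

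Complex I takes electrons from NADH and complex II takes them from succinate in the tricarboxylic acid cycle, and both hand them to ubiquinone. Complex III passes them on to cytochrome c, complex IV passes them from cytochrome c to oxygen, and complex V uses the proton gradient built by complexes I, III and IV to make ATP. All complexes but complex II combine proteins from 2 genomes: nuclear genes are transcribed one by one and their proteins imported, while mitochondrial genes are transcribed from both strands of a small circular genome as long precursors that are then cut apart.

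Levels are given as FPKM, a fragment count divided by exon length and by library size, which lets genes be compared per length. The totals behind the FPKM values, inferred from the values and exon lengths, were 17543509 to 18645932 fragments in GCA libraries and 17828862 to 18229435 in PBS libraries. Fragments recovered with these totals summed to more, 18929251 to 19943266 in GCA and 19161726 to 19614428 in PBS libraries. The reason for this excess is not known. Changes are differences of mean log2(FPKM + 1), GCA minus PBS, from limma across the 11984 genes that averaged 1 FPKM or more, and a gene is called when its Benjamini-Hochberg adjusted p over all of them is under 0.05. Correlations of log values across genes were 0.989 to 0.994 within groups and 0.981 to 0.985 between them.

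The cells were sorted against CD45 and CD11b, but macrophage transcripts were present in every library. Over all tested genes 17.9% were called, 11.5% higher and 6.43% lower in GCA cells. Of 15 macrophage markers, all tested, 8 were higher and 1 (Lyz2) lower in GCA cells, and their summed level was 16071 to 17413 FPKM in GCA and 18541 to 20696 FPKM in PBS libraries. After quantile normalization the calls of Lyz2 (adjusted p = 0.438) and of the higher C1qb (0.368) ended. Of the 9 macrophage calls 7 held when any library was left out, while that of Fcer1g ended on leaving out any 1 of the 6 (0.0531 to 0.0994) and that of Aif1 without PBS replicate 1 (0.055). Without Lyz2, the lysozyme of macrophages, the sum was 7722 to 8075 FPKM in GCA and 5916 to 6485 FPKM in PBS libraries. Ptprc, which encodes CD45, stood at 12.9 to 14.5 FPKM in GCA and 12.0 to 13.2 FPKM in PBS libraries, so this excluded marker was not at 0. It was at the low end of the 15 macrophage markers, whose mean levels over all libraries ran from 13 to 1.12e+04 FPKM. Their median was 329 FPKM, beside 119 FPKM for the listed stromal markers. Of 10 tested stromal markers, 4 were lower and none was higher by limma, with 0 higher at an unadjusted p under 0.05 and 0 by limma-voom, and their summed level was 2511 to 2709 FPKM in GCA and 2893 to 3138 FPKM in PBS libraries. The stromal call of Col1a2 ended without GCA replicates 1, 2 or 3 or PBS replicate 2 (adjusted p = 0.054 to 0.0915), and the other 3 held. In bulk libraries a smaller number of cells of a type and less RNA per cell cannot be told apart, and the part of these shifts in the results on respiratory genes was not tested.

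Most subunit genes were not called, and the median change was above 0 for the nuclear and below 0 for the mitochondrial ones. Of 91 subunit genes tested, 10 were called, 5 higher (Ndufs5, Ndufa5, Sdhc, Sdhd and Atp5s) and 5 lower (Cox6a2, Cox7a2l, mt-Nd6, mt-Co3 and mt-Atp6) in GCA cells. Set against the 17.9% of all tested genes, with 11.5% higher and 6.43% lower, the share of 11% among the subunit genes was below the background. Of 79 tested nuclear genes 5 were called higher and 2 lower, and of 12 mitochondrial genes 3 were called lower and 0 higher, with 0 higher at an unadjusted p under 0.05 and 0 higher by limma-voom. The median log2 change was 0.03 for nuclear genes and −0.19 for mitochondrial genes, beside 0.006 over all tested genes. The nuclear changes were positive in 53 genes and negative in 26, and the mitochondrial ones were positive in 1 (mt-Co1) and negative in 11. After quantile normalization the nuclear split was 43 positive and 36 negative, and without PBS replicate 1 it was again 43 and 36. With mt-Co1 turning negative, all 12 mitochondrial changes were negative after median centring and without PBS replicate 1. Of these 12 genes, 5 have near-identical copies on chromosome 1, so their levels are uncertain: mt-Co2, mt-Atp6, mt-Co3, mt-Nd3 and mt-Nd4l. In the main test 2 of these 5 were called lower, and all 5 changes were negative (median −0.33). Among the other 7, 1 was called lower (mt-Nd6) and 6 changes were negative (median −0.175). That share was 14.3%, beside 17.9% called and 6.43% lower among all genes. Of the 7, mt-Nd4 and mt-Co1 are copied in part.

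**Figure D1:**
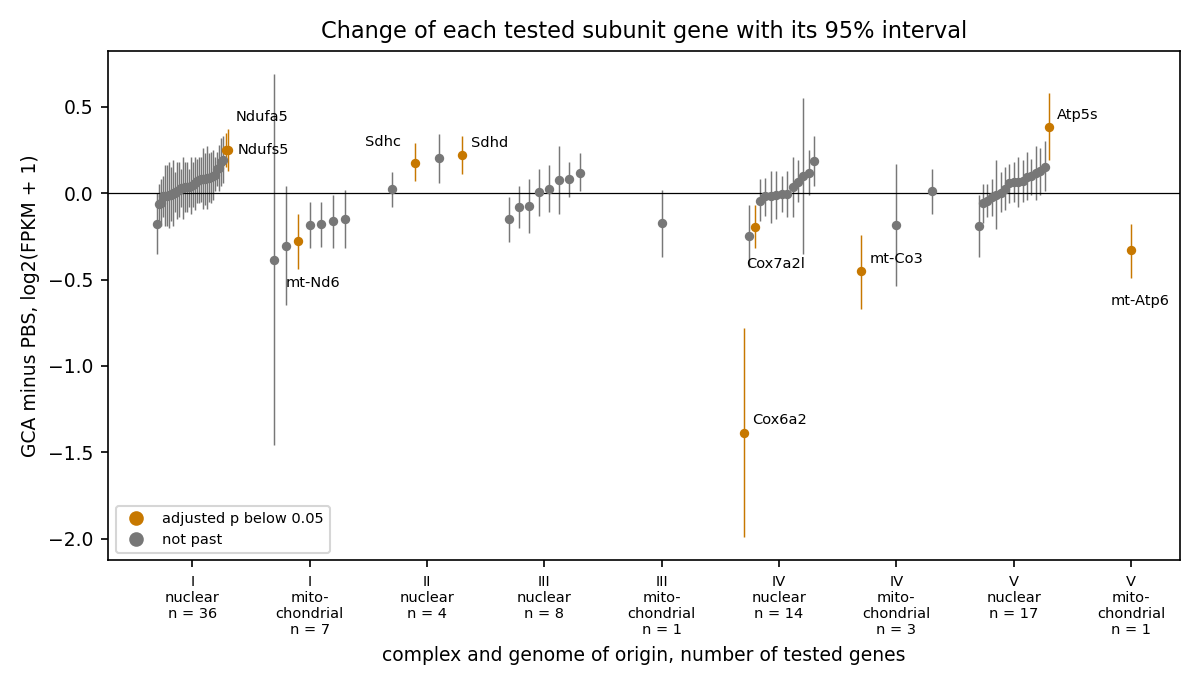
Change of each of the 91 tested subunit genes (vertical axis, GCA minus PBS, difference of mean log2(FPKM + 1), with its 95% interval), grouped along the horizontal axis by complex and genome, with the number of tested genes. Called genes are orange and named, and the mitochondrial genes lie below 0 except mt-Co1, at 0.01.

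The GCA and PBS values did not overlap in 27 of the 91 subunit genes (29.7%), 16 higher and 11 lower in GCA cells. The same held for 38.5% of all tested genes, 21.6% higher and 16.8% lower, so the subunit genes were again below the background. Among the nuclear genes 16 were wholly higher and 5 wholly lower in GCA cells. Among the mitochondrial genes 6 of 12 were wholly lower and 0 wholly higher. Of those 6, 2 were among the 5 copied genes and 4 among the other 7. One PBS library bears on the nuclear values: PBS replicate 1 was the lowest of the 6 libraries in 43 of the 79 tested nuclear genes. The same count was not made over all tested genes, so it is not shown to be particular to these genes.

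The summed level of the 83 nuclear genes was 4019, 4114 and 3986 FPKM in GCA replicates 1 to 3, against 3803, 4031 and 4044 FPKM in PBS replicates 1 to 3. These sums overlapped, with means of 4040 ± 66.8 FPKM in GCA and 3959 ± 135 FPKM in PBS cells (SD, n = 3 each), and their ratio of 1.02 was 1 without PBS replicate 1. The summed level of the 12 mitochondrial genes was 14720, 14013 and 14749 FPKM in GCA libraries, against 14472, 16100 and 15590 FPKM in PBS libraries. These sums overlapped too, through PBS replicate 1, with a ratio of means of 0.942 that was 0.915 without that library. The ratio of the mitochondrial to the nuclear sum was 3.66, 3.41 and 3.70 in GCA and 3.81, 3.99 and 3.86 in PBS libraries, so it was lower in each GCA library than in any PBS library. No test was made on these sums.

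**Figure D2:**
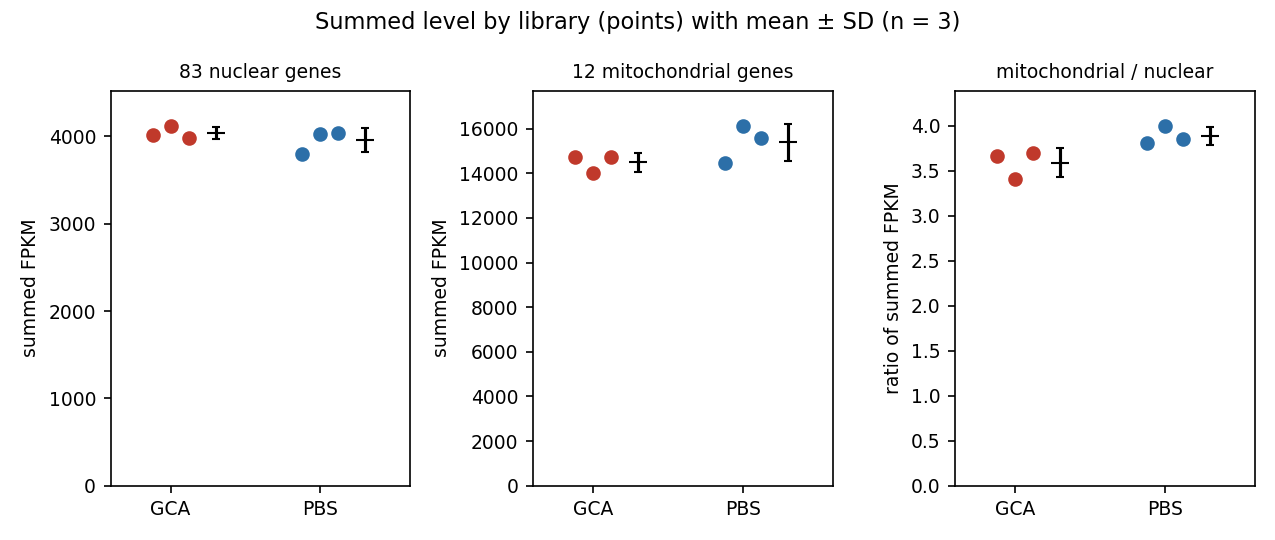
Summed FPKM of the 83 listed nuclear genes (left), of the 12 listed mitochondrial genes (middle) and the ratio of the mitochondrial to the nuclear sum (right) in each library, with GCA left of PBS and the mean ± SD of 3 libraries beside the points. The left and middle groups overlap, and the ratio is 3.41 to 3.70 in GCA and 3.81 to 3.99 in PBS libraries.

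The mitochondrial genes fell into a high and a low set. The 7 high genes were mt-Co1, mt-Nd1, mt-Cytb, mt-Nd2, mt-Nd5, mt-Nd4 and mt-Nd6, at 369 to 7558 FPKM in single libraries, and the 5 low genes were mt-Co2, mt-Atp6, mt-Co3, mt-Nd3 and mt-Nd4l, at 0.37 to 39.3 FPKM. The low genes stand side by side on the mitochondrial genome, between mt-Co1 and mt-Nd4. This is the stretch that the annotation also holds as unprocessed pseudogenes on chromosome 1 (minus strand, chr1:24611535-24616197 in GENCODE M21 on GRCm38), a copy of mitochondrial DNA in the nuclear genome. Of the 50-base words in the transcript, 98.0% to 100% also occurred in another annotated transcript for each of the 5 low genes, against 62.2% for mt-Nd4, 51.1% for mt-Co1 and at most 8.19% for the other 5 high genes. The levels of the 5 low genes, and in part those of mt-Nd4 and mt-Co1, are therefore uncertain. No source at hand says how reads shared by identical genes were assigned.

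The start of mt-Co3 (chrM:8607-8666) is printed with that of its copy Gm28437 (chr1:24613912-24613971, minus strand) because a called gene and its copy have the same letters there, as they do over all 783 aligned bases. The start of mt-Nd3 (chrM:9459-9518) and that of Gm28438 (chr1:24613060-24613119, minus strand) differ by 1 base, T3C, counted from the first base of the mitochondrial gene, which is also the sole difference over 345 aligned bases. The bases 1054 to 1113 of mt-Co1 (chrM:6381-6440) are set beside the first 60 bases of Gm29216 (chr1:24616138-24616197, minus strand) to show where the identity begins. The aligned stretch of mt-Co1 runs from base 1063 to base 1545 and holds 1 difference, A1066T. Capitals mark bases that differ between the members of a pair.
mt-Co3: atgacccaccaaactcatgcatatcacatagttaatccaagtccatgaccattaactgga
Gm28437: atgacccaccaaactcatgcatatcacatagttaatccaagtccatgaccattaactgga
mt-Nd3: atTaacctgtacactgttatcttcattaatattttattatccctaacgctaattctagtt
Gm28438: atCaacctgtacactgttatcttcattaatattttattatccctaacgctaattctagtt
mt-Co1: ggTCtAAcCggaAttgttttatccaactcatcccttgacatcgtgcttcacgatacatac
Gm29216: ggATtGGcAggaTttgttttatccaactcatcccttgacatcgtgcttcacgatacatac

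The called low gene mt-Co3, a core subunit of complex IV, had 11, 11.2 and 11.8 FPKM in GCA and 13.5, 16.7 and 17.8 FPKM in PBS libraries. Every GCA library was below every PBS library, and the log2 change was −0.45 (SE 0.093, limma adjusted p = 0.0148). The call ended without GCA replicate 1 (adjusted p = 0.0527) and without PBS replicate 2 (0.058). Its copy Gm28437 had 9.94, 11.7 and 10.1 FPKM in GCA and 12.1, 14.8 and 12.3 FPKM in PBS libraries, a log2 change of −0.28 that was not called (adjusted p = 0.0667). The copy was lower than mt-Co3 in all libraries but GCA replicate 2.

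The called low gene mt-Atp6, the membrane subunit of complex V that forms part of its proton path, had 8.63, 7.95 and 9.21 FPKM in GCA and 10.3, 11.2 and 11.7 FPKM in PBS libraries. The groups did not overlap, and the log2 change was −0.33 (SE 0.068, limma adjusted p = 0.0137). The call ended without PBS replicate 2 (adjusted p = 0.0527), without PBS replicate 3 (0.0543) and in limma-voom on recovered fragments (0.0693). Its copy Gm10925 had more, 30.3, 28.9 and 30.7 FPKM in GCA and 32.0, 43.2 and 37.6 FPKM in PBS libraries, with a log2 change of −0.31 (adjusted p = 0.0673).

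The other low genes overlapped between the groups. For mt-Co2, the complex IV subunit that receives electrons from cytochrome c, the levels were 35.3, 27.3 and 25.6 FPKM in GCA and 31.5, 39.3 and 29.7 FPKM in PBS libraries (adjusted p = 0.433). The complex I gene mt-Nd3 was at 2.41, 1.64 and 1.54 FPKM in GCA and 2.05, 3.17 and 2.42 FPKM in PBS libraries (adjusted p = 0.196). The complex I gene mt-Nd4l was at 1.13, 0.96 and 1.08 FPKM in GCA and 0.37, 2.23 and 3.40 FPKM in PBS libraries (adjusted p = 0.587). These values rest on 10 to 20 fragments for mt-Nd3 and 2 to 18 for mt-Nd4l. Without PBS replicate 1, the low library, mt-Nd4l was called lower (log2 change −0.87, adjusted p = 0.0155).

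**Figure D3:**
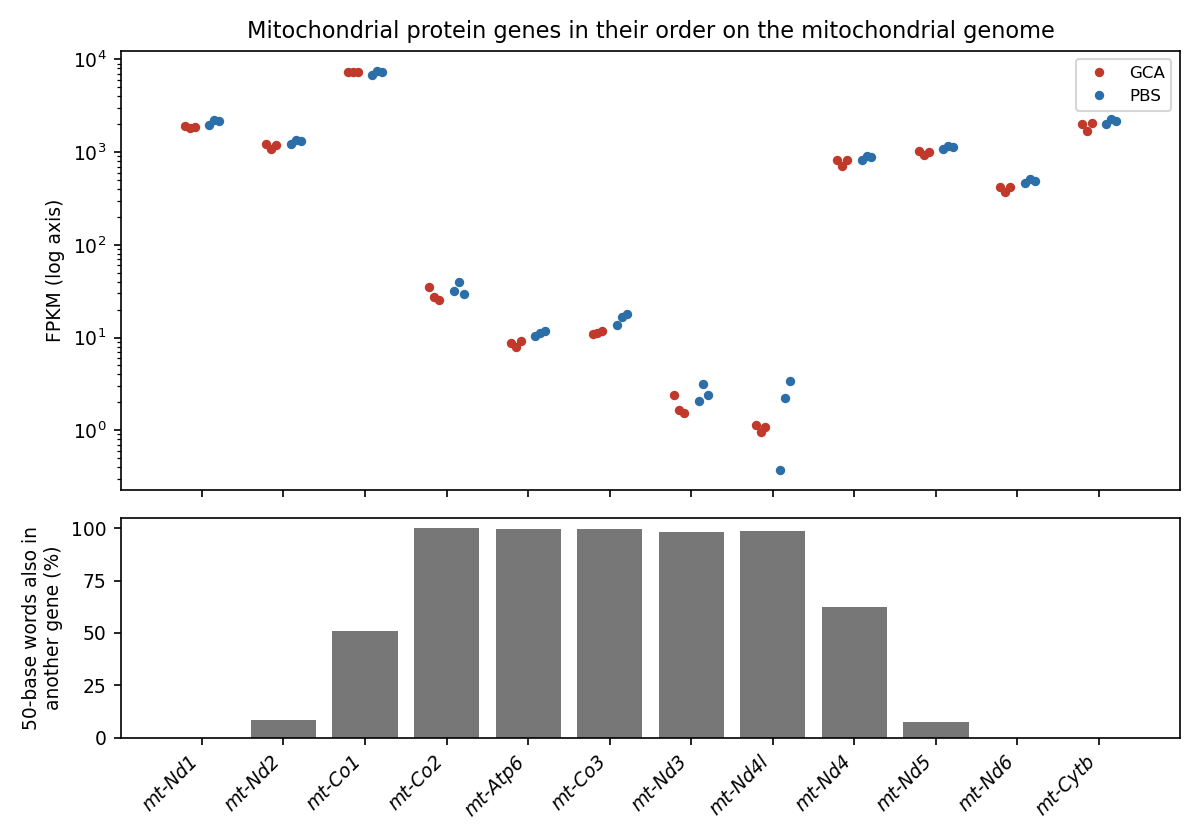
Level of the 12 listed mitochondrial protein genes in each library (upper panel, FPKM on a log axis, GCA left of PBS) in their order along the mitochondrial genome, over the share of 50-base transcript words found in another annotated gene (lower panel, percent). The 5 genes with 98.0% to 100% shared words lie under 40 FPKM, and the other 7 lie at 369 FPKM or more.

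Among the high genes, mt-Nd6, the complex I gene that alone among these proteins is read from the light strand, was called. It had 422, 369 and 420.2 FPKM in GCA and 459, 515 and 492 FPKM in PBS libraries, and no word of it was shared with another gene. All GCA libraries were below all PBS libraries, with a log2 change of −0.28 (SE 0.069, limma adjusted p = 0.0284). The adjusted p was 0.0511 without GCA replicate 1, 0.103 without PBS replicate 2 and 0.0844 without PBS replicate 3. Its end overlaps that of mt-Nd5 on the other strand, and no source at hand states how strand was handled.

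The neighbour mt-Nd5, a proton-pumping membrane subunit of complex I, had 1030, 933 and 1006 FPKM in GCA and 1074, 1166 and 1132 FPKM in PBS libraries. The groups were apart, with a log2 change of −0.18 that was not called (SE 0.058, adjusted p = 0.0621). The membrane subunit gene mt-Nd1 had 1897, 1822 and 1885 FPKM in GCA and 1978, 2211 and 2155 FPKM in PBS libraries, also apart and not called (log2 change −0.18, SE 0.057, adjusted p = 0.0673). Both were called lower after quantile normalization (mt-Nd1 adjusted p = 0.0442, mt-Nd5 0.0238), after rescaling over nuclear protein-coding genes (0.0431 and 0.049 in that order) and in limma-voom (0.0338 and 0.0316). Without PBS replicate 1, mt-Nd1 was called too (adjusted p = 0.0242).

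None of the next 3 genes was called. The levels of mt-Nd2, a membrane subunit of complex I, were 1212, 1070.1 and 1202 FPKM in GCA and 1219, 1364 and 1314 FPKM in PBS libraries (log2 change −0.16, adjusted p = 0.14), apart by a narrow margin. Those of mt-Nd4, another membrane subunit, overlapped and were 819, 715 and 824 FPKM in GCA and 813, 919 and 881 FPKM in PBS libraries (−0.15, adjusted p = 0.195, and −0.24 with adjusted p = 0.00823 after quantile normalization). The cytochrome b gene mt-Cytb, the sole mitochondrial gene of complex III, had 2034, 1694 and 2042 FPKM in GCA and 2019, 2294 and 2187 FPKM in PBS libraries (−0.17, adjusted p = 0.197). GCA replicate 2 was the lowest library in 6 of the 7 high genes, and PBS replicate 2 the highest in 7 of 7. Mitochondrial genes are cut from shared precursors, so these counts are not independent, and no such count was made over all genes.

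The most abundant subunit transcript, mt-Co1, the catalytic subunit of complex IV, did not follow the other high genes. It had 7247, 7361 and 7321 FPKM in GCA and 6852, 7558 and 7364 FPKM in PBS libraries. These overlapped, and the log2 change was 0.01 (95% interval −0.12 to 0.14, adjusted p = 0.916). Relative to mt-Nd1, which lies upstream on the same strand, mt-Co1 stood at 3.82, 4.04 and 3.88 in GCA and 3.46, 3.42 and 3.42 in PBS libraries. The ratio was higher in each GCA library than in any PBS library, so the relative level of the 2 transcripts differed between the groups. The ratio alone does not show which of them moved. Taken singly, mt-Co1 overlapped, while mt-Nd1 was lower in each GCA library than in any PBS library and was not called. Since 51.1% of the words of mt-Co1 and none of mt-Nd1 occur in other genes, the ratio may also depend on how shared reads were assigned. The mitochondrial sum without mt-Co1 was 7472, 6652 and 7428 FPKM in GCA and 7620, 8542 and 8227 FPKM in PBS libraries. This sum was not planned, and it leaves out the gene that did not follow the others. That it did not overlap, by a narrow margin, is thus no separate result, and the sum with mt-Co1 did overlap. The mitochondrial rRNAs did not share one direction: mt-Rnr1 had a log2 change of 0.14 (adjusted p = 0.53) and mt-Rnr2 one of −0.23 (adjusted p = 0.0823), and limma-voom called 1 of the pair lower.

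In the nuclear set the highest levels belonged to complexes IV and V. Cox6a1 led with 295 ± 15.3 FPKM in GCA and 304 ± 6.18 FPKM in PBS cells (SD, n = 3 each), followed by Cox8a with 289.9 ± 15.8 FPKM in GCA and 276 ± 5.74 FPKM in PBS cells, a gap within the spread of the libraries. The next were Atp5a1 and Atp5b, the alpha and beta subunits of the catalytic head of complex V, at 169 ± 8.34 and 161 ± 4.53 FPKM in GCA and 169 ± 3.72 and 166 ± 1.28 FPKM in PBS cells. None of these 4 genes was called (adjusted p = 0.609 for Cox6a1, 0.414 for Cox8a, 0.992 for Atp5a1 and 0.495 for Atp5b). Some low values come with a long annotated exon length: Ndufb2, Ndufab1 and Atp5l, at mean levels under 3 FPKM, have 5628, 6883 and 6443 exon bases. Across the 83 nuclear genes, which are not independent replicates, Spearman's rho between mean FPKM and exon length was −0.231.

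**Figure D4:**
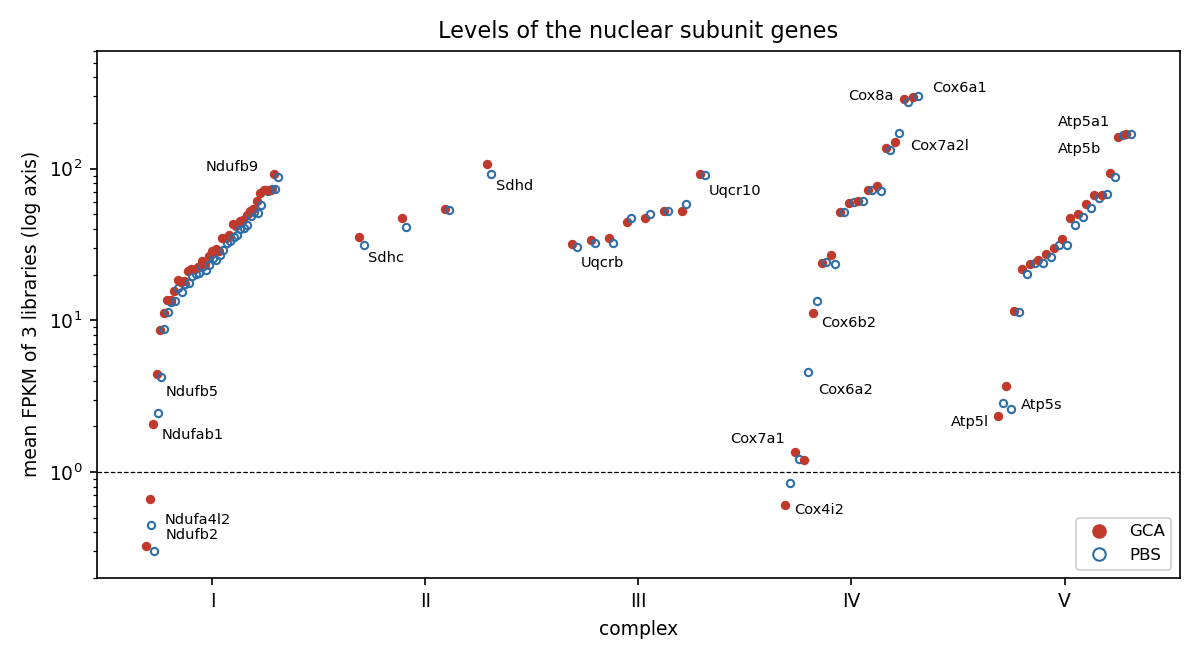
Mean FPKM of 3 libraries (log axis) of the listed nuclear subunit genes by complex, GCA filled and PBS open, each complex ordered by level. The dashed line is the filter of 1 FPKM, and Cox8c, at 0 FPKM in all GCA libraries, is not drawn. Cox6a1 and Cox8a are at the top, near 300 FPKM, and Cox6a2 shows the widest gap between the groups above the line.

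Complex II had the highest ratio of summed level, GCA over PBS, of the 5 complexes. Its 4 genes are all nuclear: Sdha carries the flavin, Sdhb the iron-sulfur clusters, and Sdhc and Sdhd anchor the enzyme in the membrane and bind ubiquinone. Sdhc and Sdhd were called higher (50% of 4 genes, beside 11.5% higher among all genes), Sdhb was apart but not called, and Sdha overlapped. The groups were apart and higher in 75% of these 4 genes, beside 21.6% among all genes, and a share of so few genes is coarse. Their summed level was 244.7, 247.6 and 239.1 FPKM in GCA and 209.6, 219.6 and 223.1 FPKM in PBS libraries, so each GCA library was above each PBS library. The ratio of means was 1.12, while it was 1.04 for complex I, 0.992 for complex III, 0.99 for complex IV and 1.02 for complex V among nuclear genes.

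Sdhd (chr9:50596357-50603812, minus strand), the more abundant membrane anchor, had 107.4, 107.9 and 105.3 FPKM in GCA and 88.3, 89.9 and 97.1 FPKM in PBS libraries. The groups were apart, with a log2 change of 0.22 (SE 0.049, limma adjusted p = 0.0194). The call ended without GCA replicate 1 (adjusted p = 0.0658), without PBS replicate 1 (0.0532) and without PBS replicate 2 (0.0743). Sdhc (chr1:171127165-171150603, minus strand), the other anchor, had 34.9, 37.0 and 34.9 FPKM in GCA and 30.8, 32.4 and 30.9 FPKM in PBS libraries. The groups were apart here too, with a log2 change of 0.18 (SE 0.047, adjusted p = 0.036). Its call was lost on leaving out any of the 6 libraries in turn (adjusted p = 0.0602 to 0.118), after quantile normalization (0.0806) and after median centring (0.0554).

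Sdhb had 49.0, 47.5 and 46.1 FPKM in GCA and 37.8, 43.4 and 42.6 FPKM in PBS libraries. Its groups were apart and its log2 change was 0.20 (SE 0.061), with an adjusted p of 0.0547 by limma and 0.0229 by limma-voom. Sdha was at 53.4, 55.2 and 52.9 FPKM in GCA and 52.8, 53.8 and 52.5 FPKM in PBS libraries, with a log2 change of 0.02 (95% interval −0.08 to 0.12, adjusted p = 0.772). The flavin subunit thus had values of the same size in both groups, while the other 3 genes were wholly higher in GCA libraries.

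Promoters were searched for sites known from respiratory genes, on both strands: the 10-letter NRF1 palindrome that stands first in capitals in the Cox6a1 window, CCGGAAG for ETS factors such as GABP, AAGATGGC for YY1, and CCAAT. RefSeq promoter windows (GRCm38.p6, from 250 bases before to 50 after the start) were matched by symbol for 67 of the 86 nuclear genes. The NRF1 letters were in 5 of them (7.46%), against 2.45% of 8809 tested genes and 1.07% of 27025 genes with a window. The ETS letters were in 16 (23.9%, against 21.2% of tested and 9.93% of all genes), the YY1 letters in 9 (13.4%, against 5.64% and 3.19%) and CCAAT in 29 (43.3%, against 42.9% and 41.1%). Shown are windows of Sdhb and Sdhd, complex II genes whose groups were apart, and of Cox6a1, the most abundant nuclear gene, which holds NRF1 and ETS letters.
Sdhb: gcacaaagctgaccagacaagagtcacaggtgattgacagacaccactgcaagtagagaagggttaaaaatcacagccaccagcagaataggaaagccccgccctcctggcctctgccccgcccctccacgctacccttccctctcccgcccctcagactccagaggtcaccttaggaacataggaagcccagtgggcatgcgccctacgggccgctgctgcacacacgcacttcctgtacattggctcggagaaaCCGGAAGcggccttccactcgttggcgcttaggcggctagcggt
Sdhd: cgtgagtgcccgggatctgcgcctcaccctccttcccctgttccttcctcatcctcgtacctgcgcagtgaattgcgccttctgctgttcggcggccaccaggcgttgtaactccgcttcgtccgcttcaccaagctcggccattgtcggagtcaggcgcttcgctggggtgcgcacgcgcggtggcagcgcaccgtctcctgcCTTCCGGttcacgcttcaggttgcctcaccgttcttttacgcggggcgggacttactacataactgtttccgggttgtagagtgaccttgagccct
Cox6a1: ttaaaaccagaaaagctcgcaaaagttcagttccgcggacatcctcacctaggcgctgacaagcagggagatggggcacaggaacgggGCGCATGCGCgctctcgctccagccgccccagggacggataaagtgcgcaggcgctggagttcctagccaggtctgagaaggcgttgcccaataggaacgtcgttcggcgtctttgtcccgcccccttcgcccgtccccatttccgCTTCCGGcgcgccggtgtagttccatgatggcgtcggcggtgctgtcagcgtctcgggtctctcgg
Capitals mark the NRF1 letters and the ETS letters in either strand's reading, which do not overlap in these windows, and CCAAT is not marked. The windows are chr4:140961021-140961320 on the plus strand for Sdhb, chr9:50603800-50604099 on the minus strand for Sdhd and chr5:115348909-115349208 on the minus strand for Cox6a1. Of the called nuclear genes with a window, Ndufs5, Ndufa5, Sdhd and Cox7a2l, Sdhd alone held letters for NRF1, ETS or YY1. A match describes the letters only.

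Of the 36 tested nuclear genes of complex I, 2 were called higher, Ndufs5 and Ndufa5, and none lower (limma), with 0 lower at an unadjusted p under 0.05 and 0 lower by limma-voom. This was 5.56% of them, below the 17.9% of all genes. Ndufs5 (chr4:123712710-123718202, minus strand), an accessory subunit on the side of the intermembrane space, had 42.3, 44.2 and 44.0 FPKM in GCA and 36.1, 36.0 and 37.2 FPKM in PBS libraries. The groups were well apart, with a log2 change of 0.25 (SE 0.043, adjusted p = 0.0072). Of the 10 called subunit genes it alone stayed under 0.05 in all 17 alternatives run for it, with a highest adjusted p of 0.033. It shares 21.7% of its words with the processed pseudogene BC002163, which had at most 1.23 FPKM.

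Ndufa5 (chr6:24518666-24528013, minus strand), an accessory subunit of the arm that reaches into the matrix, had 17.7, 19.6 and 18.2 FPKM in GCA and 15.5, 15.2 and 15.4 FPKM in PBS libraries. The groups were apart, with a log2 change of 0.25 (SE 0.051, adjusted p = 0.0135), and the adjusted p was 0.0515 without PBS replicate 2. The 7 nuclear core subunits, which hold the flavin and the iron-sulfur clusters, had no called gene by limma, with 3 at an unadjusted p under 0.05 and 2 called higher by limma-voom (Ndufs3 and Ndufs7). In 3 of these 7 the groups were apart and higher: Ndufs3 (log2 change 0.18, adjusted p = 0.0761), Ndufs7 (0.19, 0.0561) and Ndufs8 (0.11, 0.121). This was 42.9% of the 7, beside 21.6% apart and higher and 38.5% apart in either direction among all genes.

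The highest nuclear transcript of complex I, Ndufb9, had 88.9, 95.4 and 93.6 FPKM in GCA and 88.6, 82.6 and 93.5 FPKM in PBS libraries (adjusted p = 0.425). The most negative nuclear change in complex I was that of Ndufab1, the acyl carrier protein of mitochondria, at 2.03, 2.28 and 1.89 FPKM in GCA and 2.34, 2.39 and 2.66 FPKM in PBS libraries (log2 change −0.18, adjusted p = 0.157). Its groups were apart but it was not called. Ndufa4, placed here by its name although its protein is now counted with complex IV, had 71.9 ± 2.21 FPKM in GCA and 71.8 ± 3.21 FPKM in PBS cells (log2 change 0.003, adjusted p = 0.978). Its hypoxia-linked relative Ndufa4l2 stood at 0.72, 0.83 and 0.44 FPKM in GCA and 0.20, 0.55 and 0.15 FPKM in PBS libraries and was below the filter, as was Ndufb2.

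No gene of complex III was called among 8 nuclear genes and mt-Cytb by limma, with 2 of the nuclear genes at an unadjusted p under 0.05 and 0 called by limma-voom. The highest nuclear level of complex III was that of Uqcr10, a small subunit, at 92.9 ± 5.97 FPKM in GCA and 91.2 ± 3.92 FPKM in PBS cells (adjusted p = 0.802). Uqcrc2, a core protein of the matrix side, had the most positive change, with 34.9, 35.3 and 34.6 FPKM in GCA and 31.8, 30.9 and 33.8 FPKM in PBS libraries (log2 change 0.12, adjusted p = 0.128). Uqcrfs1, the Rieske iron-sulfur protein, had the most negative nuclear change, with 55.3, 51.3 and 52.2 FPKM in GCA and 55.2, 62.2 and 59.3 FPKM in PBS libraries (−0.15, adjusted p = 0.106). The Uqcrfs1 groups overlapped, and it was called lower after quantile normalization (adjusted p = 0.047).

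Complex IV has subunits made in tissue-specific forms, and its 2 called nuclear genes among 14 tested, Cox6a2 and Cox7a2l, were both lower (14.3%, against 6.43% lower among all genes). None was called higher, with 1 higher at an unadjusted p under 0.05 and 1 by limma-voom, Cox5a. Cox6a2 (chr7:128205435-128206387, minus strand) is the form of subunit 6a found in heart and skeletal muscle. It had 0.41, 1.51 and 1.66 FPKM in GCA and 4.03, 5.02 and 4.54 FPKM in PBS libraries, which rest on 5 to 62 fragments. The groups were far apart, with a ratio of means of 0.263 and a log2 change of −1.39 (SE 0.249, limma adjusted p = 0.0149), the largest change among the subunit genes.

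The Cox6a2 call ended without PBS replicate 2 (adjusted p = 0.0527), without PBS replicate 3 (0.0589) and with a pseudocount of 0.1 (0.0523). Cox6a1, the form of other tissues, was at 283, 312 and 291 FPKM in GCA and 297, 309 and 306 FPKM in PBS libraries. The ratio of Cox6a2 to Cox6a1 was 0.00146, 0.00483 and 0.00569 in GCA and 0.0136, 0.0163 and 0.0148 in PBS libraries. Muscle markers were near 0: the sum of 6 listed muscle genes was 0.29 to 0.64 FPKM in GCA and 0.42 to 0.60 FPKM in PBS libraries, and no muscle gene reached the filter. Of the exon bases of Cox6a2, 10.3% overlap Itgad, which had at most 0.04 FPKM.

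**Figure D5:**
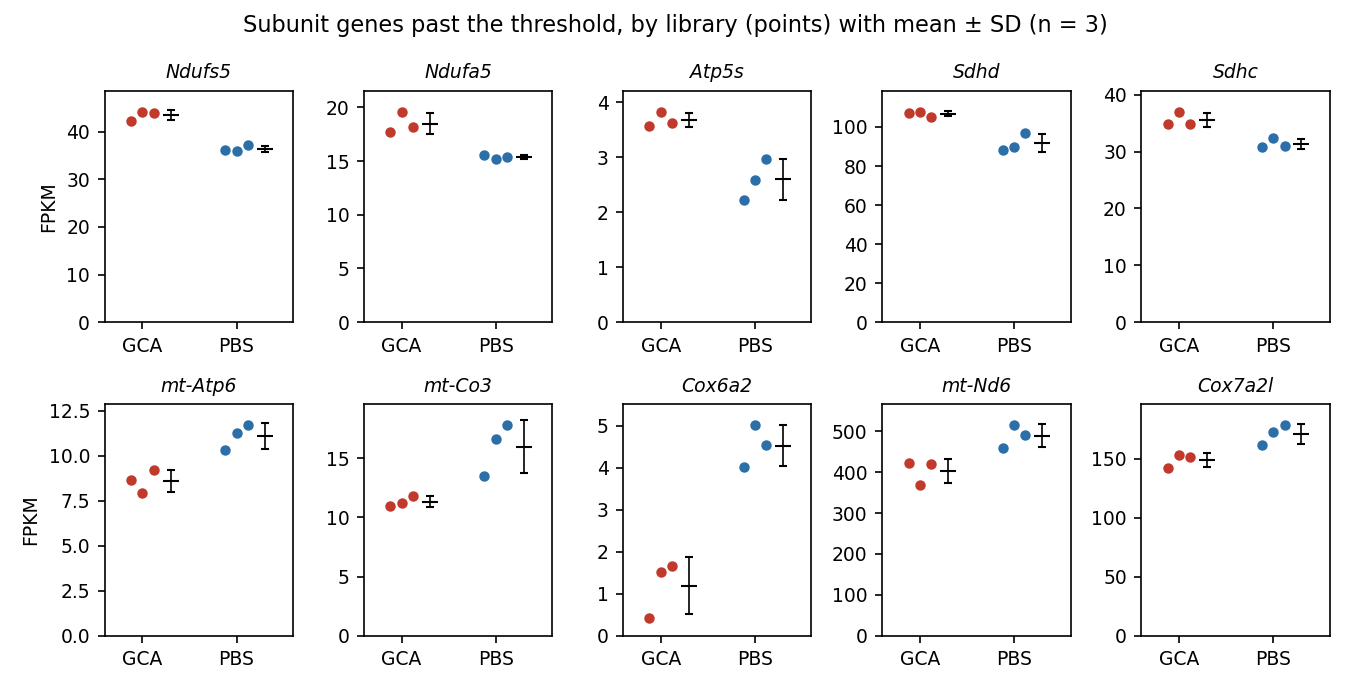
FPKM in each library (points, GCA left of PBS) of the 10 called subunit genes, with the mean ± SD of 3 libraries beside them; each axis starts at 0. In every panel the 3 GCA points lie on one side of the 3 PBS points, higher in the upper row and lower in the lower row, and the gap is widest relative to the level for Cox6a2.

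Cox7a2l (chr17:83501918-83517330, minus strand) encodes a protein that joins complexes III and IV into a supercomplex, and C57BL/6 mice are known to carry a short form of it. It had 142, 153 and 151 FPKM in GCA and 161, 173 and 178 FPKM in PBS libraries. The groups were apart, with a log2 change of −0.20 (SE 0.055, limma adjusted p = 0.0423). The call was lost in 7 of 17 alternatives, among them leaving out GCA replicate 1 (adjusted p = 0.141), GCA replicate 3 (0.0822), PBS replicate 2 (0.124) or PBS replicate 3 (0.142), and quantile normalization (0.0576). The standard subunit Cox7a2 had 49.2, 53.0 and 52.1 FPKM in GCA and 48.8, 55.8 and 50.9 FPKM in PBS libraries (adjusted p = 0.938). The ratio of Cox7a2l to Cox7a2 was 2.89, 2.90 and 2.91 in GCA and 3.31, 3.09 and 3.51 in PBS libraries, lower in each GCA library.

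The other isoform pairs overlapped or were not called. Cox6b2, the testis form of subunit 6b, had 11.2, 10.1 and 12.4 FPKM in GCA and 13.7, 14.2 and 12.5 FPKM in PBS libraries, apart by a small margin (log2 change −0.25, SE 0.078, adjusted p = 0.0649). Cox6b2 was called lower after quantile normalization (adjusted p = 0.0449), after median centring (0.0464) and without GCA replicate 3 (0.0354), while the testis genes Prm1 and Prm2 stayed under 1 FPKM. Cox6b1, the common form, had 136 ± 6.05 FPKM in GCA and 133 ± 13.4 FPKM in PBS cells (adjusted p = 0.796). Cox7a1, a muscle form, was at 1.78, 1.39 and 0.90 FPKM in GCA and 1.23, 0.72 and 1.68 FPKM in PBS libraries, on 7 to 17 fragments (adjusted p = 0.767).

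Cox4i1, the common form of subunit 4, had 71.9 ± 0.30 FPKM in GCA and 72.1 ± 2.93 FPKM in PBS cells (adjusted p = 0.959). Its oxygen-regulated form Cox4i2 was below the filter, at 0.78, 0.36 and 0.68 FPKM in GCA and 0.77, 0.91 and 0.85 FPKM in PBS libraries. Cox8c, a testis form, was listed at 0 in all GCA libraries and at 0, 0 and 0.12 FPKM in PBS libraries. The most positive change was that of Cox5a, a subunit that binds a thyroid hormone, at 27.1, 29.1 and 24.8 FPKM in GCA and 24.1, 22.9 and 23.5 FPKM in PBS libraries (log2 change 0.19, adjusted p = 0.073). Its groups were apart, and Cox5a was called in limma-voom (adjusted p = 0.0476) and without GCA replicate 3 (0.0332).

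Of 17 tested nuclear genes of complex V, 1 was called, Atp5s, higher (5.88%, against 11.5% higher among all genes). Atp5s (chr12:69724950-69744660, plus strand) encodes factor B, a protein found with the ATP synthase that is not one of its standard subunits. It had 3.57, 3.83 and 3.63 FPKM in GCA and 2.23, 2.59 and 2.97 FPKM in PBS libraries, on 83 to 138 fragments. The groups were apart, with a log2 change of 0.38 (SE 0.084, limma adjusted p = 0.0178), which was 0.0565 without PBS replicate 2. The most negative change was that of Atp5l, a subunit of the membrane part, at 2.25, 2.34 and 2.45 FPKM in GCA and 2.58, 2.74 and 3.19 FPKM in PBS libraries (−0.19, adjusted p = 0.126).

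The ring that turns in the membrane is built from the same protein made by Atp5g1, Atp5g2 and Atp5g3. Atp5g1 was at 11.6 ± 0.40 FPKM in GCA and 11.4 ± 0.63 FPKM in PBS cells (adjusted p = 0.791). Atp5g2 was at 45.8, 51.0 and 45.7 FPKM in GCA and 39.7, 44.5 and 43.8 FPKM in PBS libraries (log2 change 0.15, adjusted p = 0.139). Atp5g3 was at 59.3, 60.2 and 56.3 FPKM in GCA and 54.0, 55.8 and 54.4 FPKM in PBS libraries (0.10, adjusted p = 0.18). Atp5g2 and Atp5g3 were apart and higher in GCA libraries without being called, and 38.4% of the words of Atp5g2 also occur in other genes.

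Genes around the complexes were counted in the same fit. Assembly factors called higher were 1 of 17 for complex I (5.88%), 4 of 23 for complex IV (17.4%) and 2 of 5 for complex V (40%), beside 11.5% higher among all genes. None of these was called lower by limma, with 0, 1 and 1 lower at an unadjusted p under 0.05 for complexes I, IV and V and 0 lower by limma-voom. In the list for complexes II and III 1 of 8 was called, Cyb5r1, lower (12.5%, beside 6.43%), and no other gene of that list was called. Foxred1, an assembly factor of complex I, had 7.88, 7.50 and 7.65 FPKM in GCA and 5.91, 6.45 and 6.17 FPKM in PBS libraries (log2 change 0.28, adjusted p = 0.011). Cyb5r1, named as a cytochrome b5 reductase and counted here only through that list, had 15.1, 15.8 and 15.7 FPKM in GCA and 19.6, 20.6 and 18.5 FPKM in PBS libraries (−0.31, adjusted p = 0.00659). Both kept their calls when any library was left out. The median log2 change was 0.04 for complex I, 0.07 for complexes II and III, 0.07 for complex IV and 0.17 for complex V factors.

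Not called were Ndufaf8 (log2 change 0.19, adjusted p = 0.0735) and Ndufaf3 (0.23, 0.124) of complex I, and Bcs1l, which inserts the Rieske protein (0.20, 0.118), and Uqcc3 (0.23, 0.18) of complex III. Tmem70, of complex V, was not called either (−0.16, 0.101).

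The calls of the other assembly factors each depended on at least 1 library. Cox18, which inserts a complex IV subunit into the membrane, was called at an adjusted p of 0.0148 that became 0.0577 without PBS replicate 3. Coa4 had 0.0191, and 0.0602 to 0.0655 without GCA replicate 3, PBS replicate 1 or PBS replicate 3. Surf1, a complex IV factor, had 0.0285, and 0.0624 to 0.0917 without each library but GCA replicate 1. Cox15, of heme A synthesis, had 0.0316, and 0.082 to 0.0978 without GCA replicates 1 or 3 or PBS replicates 2 or 3. For complex V, Atpaf1 had 0.0233, and 0.0624 to 0.0698 without GCA replicate 1 or any PBS library. Tmem242 had 0.0323, and 0.0756 to 0.108 without GCA replicates 1 or 3 or PBS replicates 1 or 3.

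Among inner membrane carriers 1 of 16 was called, Ucp2, higher (6.25%, beside 11.5% higher among all genes). Ucp2, a carrier related to the uncoupling protein of brown fat, had 92.3, 97.2 and 92.0 FPKM in GCA and 60.6, 63.2 and 64.9 FPKM in PBS libraries. The groups were far apart, with a log2 change of 0.57 (SE 0.047, adjusted p = 0.000396) that was called in every alternative run for it. Macrophages also express Ucp2. The summed level of their markers, given above, was lower in GCA libraries with Lyz2 and higher without it. The part of macrophage RNA in the Ucp2 change was not tested. The ADP/ATP carrier Slc25a5 (log2 change 0.22, adjusted p = 0.0604) and the phosphate carrier Slc25a3 (−0.12, 0.0828) were not called.

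In the tricarboxylic acid cycle list 2 of 19 were higher and 1 was lower, a called share of 15.8% near the 17.9% of all genes. Idh2, the NADP-linked isocitrate dehydrogenase of mitochondria, had 26.3, 28.6 and 28.3 FPKM in GCA and 19.7, 20.9 and 19.9 FPKM in PBS libraries (log2 change 0.44, adjusted p = 0.00137). Pcx, pyruvate carboxylase, had 7.99, 7.07 and 8.26 FPKM in GCA and 10.9, 9.89 and 9.43 FPKM in PBS libraries (−0.34, adjusted p = 0.0174). The call of Pcx ended without PBS replicate 1 (0.0558) and without PBS replicate 2 (0.0521). That of Mdh1, the cytosolic malate dehydrogenase (adjusted p = 0.0483), ended on leaving out any library (0.0539 to 0.114).

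Of 20 genes for electron carriers and other quinone enzymes 1 was higher and 1 lower (10% called, beside 17.9% of all genes). Coq2, of ubiquinone synthesis, was called higher at an adjusted p of 0.0234 that became 0.0558 to 0.0798 without any 1 of the PBS libraries. Sqor, which oxidizes sulfide, was lower with an adjusted p of 0.0208, and 0.0534 to 0.0718 without each library but GCA replicate 2. Coq10b, a partner of ubiquinone, was not called (log2 change −0.22, adjusted p = 0.0583). Cycs, cytochrome c, had 20.4 ± 0.73 FPKM in GCA and 19.7 ± 1.05 FPKM in PBS cells (adjusted p = 0.557).

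Of 26 tested genes that copy or transcribe mitochondrial DNA none was called by limma, with 4 at an unadjusted p under 0.05 and 1 called by limma-voom. The smallest p values were those of Tefm, the elongation factor (log2 change 0.22, adjusted p = 0.092), Tfb1m, an rRNA methyltransferase (0.33, 0.104), and Fastkd3 (−0.16, 0.119). Tfam, which packs mitochondrial DNA and starts its transcription, had 5.50 ± 0.22 FPKM in GCA and 5.40 ± 0.19 FPKM in PBS cells (adjusted p = 0.812), and Polrmt, the RNA polymerase, had 4.87 ± 0.46 and 5.32 ± 0.63 FPKM in the same order (0.463). Of 13 nuclear regulators 3 were lower (23.1%, beside 6.43% lower among all genes) and 0 higher, with 0 higher at an unadjusted p under 0.05 and 0 by limma-voom. Hif1a, the oxygen-regulated transcription factor, had 35.1, 35.8 and 31.8 FPKM in GCA and 44.3, 41.8 and 43.1 FPKM in PBS libraries (log2 change −0.32, adjusted p = 0.0072). Pprc1, a coactivator of the PGC-1 family, had 5.49, 5.83 and 5.65 FPKM in GCA and 6.96, 6.95 and 7.06 FPKM in PBS libraries (−0.26, adjusted p = 0.0104). Yy1 was called at an adjusted p of 0.0475 and was past it without any library but GCA replicate 2 (0.0758 to 0.158). Ppargc1a was below the filter, at 0.06 to 0.12 FPKM in GCA and 0.07 to 0.12 FPKM in PBS libraries.

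Of 76 tested proteins of the mitochondrial ribosome, which translates the mitochondrial genes, 3 were called higher and 2 lower, a called share of 6.58% that was below the 17.9% of all genes. Mrpl28 had 35.0, 36.9 and 35.8 FPKM in GCA and 28.6, 30.0 and 29.9 FPKM in PBS libraries (log2 change 0.28, adjusted p = 0.0058). Mrpl42 had a log2 change of 0.35 (adjusted p = 0.00778), and both kept their calls without any 1 library. The lower Mrps6 (adjusted p = 0.0205) lost its call without PBS replicate 2 (0.0709) or PBS replicate 3 (0.0757). The median log2 change of the 76 was 0.02, near the 0.006 of all genes.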

How the data were processed

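Gene expression was measured by RNA sequencing (paired reads of 150 bp, as the labels' protocols state) in 3 GCA and 3 PBS libraries. The deposited values carry no named unit and were identified as FPKM, since value times GENCODE M21 exon length gives whole fragments (within 0.02) for 90.8% to 91.0% of nonzero values. The submitters' processing notes name Bowtie 0.12.2 with the builds mm8 and mm9, without their roles. The counting tool, annotation, assignment of shared reads and strand handling: not given in the sources used here. Gene coordinates were looked up by Ensembl ID in GENCODE M21 (GRCm38; 27204 of 27263 matched). Members and lists were chosen with earlier results of these data known.

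The main test was limma-trend 3.58.1 in R 4.3.3, robust, two-sided, on log2(FPKM + 1), with treatment as the only term, for genes at a mean of 1 FPKM or more, and it understates changes of low genes. Described by library were the called genes, per complex and genome the highest and the most changed genes, all mitochondrial and SDH genes, isoform pairs and c-ring genes. Companion genes were up to 3 with the smallest p per list and, chosen after their values were seen, Cox15, Cycs, Tfam, Polrmt, Ppargc1a, Ndufs3, Ndufs8, the markers Ptprc, Lyz2, C1qb, Fcer1g, Aif1, Col1a2, Prm1 and Prm2. Tested on simulated data of 11900 genes for this comparison, limma recovered 91 of 100 genes changed 1.5-fold, 93 of 100 changed 2-fold and called 9 unchanged genes. The simulation held no change under 1.5-fold, so it does not measure recovery of smaller changes, which most of those reported here are. It also gave every gene the same dispersion and held no library effect and no shared reads. Its counts may therefore not carry over to these libraries. Alternatives were other filters, pseudocounts, scalings, thresholds and moderation, limma-voom on recovered fragments, protein-coding genes only, a replicate block and leaving out each library. The numbers were not taken as pairs because no label says that they pair cultures. Same-numbered libraries had correlated deviations of 0.0287 to 0.082. Python 3.11.15 was used for the rest, with pandas 2.3.3, numpy 2.4.6, Biopython 1.88 and matplotlib 3.10.9.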

Additional observations from a re-analysis of the deposited data

How the results depend on the processing

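Of all tested genes 2151 were called, 1380 higher and 771 lower (64.2% higher), and 1198 higher and 1027 lower after quantile normalization (53.8% higher). The count was 1075 without a low-value filter, 837 at an adjusted p of 0.01 and 1225 to 2078 on leaving out 1 library, with 1361 without GCA replicate 1, 1307 without PBS replicate 2 and 1225 without PBS replicate 3. Subunit genes called higher, 5 in the main test, numbered 2 without a filter, 9 in limma-voom, 10 at an adjusted p of 0.10, 1 at 0.01 and 1 to 5 on leaving out 1 library (3 without GCA replicate 1, 3 without PBS replicate 1 and 1 without PBS replicate 2). Those called lower, 5 in the main test, numbered 1 without a filter, 9 after quantile normalization, 8 at an adjusted p of 0.10, 0 at 0.01 and 0 to 7 on leaving out 1 library (2 without GCA replicate 1, 0 without PBS replicate 2 and 1 without PBS replicate 3). Leaving out a library also leaves fewer samples, and the cause of the other shifts was not tested. Without a filter, the calls of mt-Atp6 (adjusted p = 0.0581), mt-Nd6 (0.095), mt-Co3 (0.0635), Cox7a2l (0.113), Atp5s (0.0672), Sdhd (0.0603) and Sdhc (0.0938) ended, with more genes tested. The summed nuclear level, GCA over PBS, was 1.02 and ranged over leave-outs as 1 to 1.03, and the mitochondrial one was 0.942 with 0.915 to 0.964. With the replicate block 2094 genes were called, and 5 subunit genes higher and 5 lower. The numbers share no stated source, and the correlations of deviations were 0.082, 0.0287 and 0.0676, each the highest of its libraries, a hint from the data only. No called change reversed. Levels of mitochondrial genes copied on chromosome 1 are limited by read assignment.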
